A study of Mus musculus with 6 samples.

Results

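The genes described here are the nuclear genes of the mitochondrial respiratory chain and of the mitochondrial ribosome, followed in the RNA of splenic CD3+ T cells after haematopoietic stem cell transplantation (HSCT) in mice. Members were taken by symbol alone. Every symbol of the deposited table that starts with Nduf, Uqcr, Atp5, with Cox and a digit, or with Mrpl or Mrps and a digit was used, together with Sdha to Sdhd and Cycs. This gave 82 of the 8468 genes in the table. The RefSeq annotation (GRCm38.p6) lists 184 protein-coding symbols of this form, of which 80 were members, and the remaining 2 members are annotated pseudogenes. By family, the table held 24 of 49 Nduf, 2 of 4 Sdh, 4 of 8 Uqcr, 17 of 27 Cox, 7 of 17 Atp5, 16 of 49 Mrpl and 9 of 29 Mrps genes. The others, among them Sdha, Sdhb and the subunits of complex I and complex V not named here, were not analysed here.

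All hosts were Balb/c mice. The 3 allo-HSCT libraries came from hosts given cells of C57BL/6 donors, and the 3 syn-HSCT libraries from hosts given cells of Balb/c donors, the strain of the host. Allogeneic cells carry transplantation antigens that differ from those of the host, a difference that can lead to graft-versus-host disease. The labels give no age, time after transplantation or conditioning, and they do not say whether each library came from its own animal. The p-values therefore measure the spread between these libraries, which may be technical. Donor strain and type of transplantation differ together in every library, so their effects cannot be told apart. T cells of the donor and any T cells the host still had were not separated.

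The respiratory chain sits in the inner mitochondrial membrane. Complex I and complex II pass electrons from NADH and succinate to coenzyme Q, complex III passes them on to cytochrome c, and complex IV hands them to oxygen. Complexes I, III and IV pump protons as they do so, and complex V, the ATP synthase, uses the proton gradient to make ATP. A few core subunits of complexes I, III, IV and V are encoded by mitochondrial DNA and are translated by a dedicated mitochondrial ribosome, whose proteins, like all other subunits, are encoded in the nucleus. T cells that leave the resting state are known to expand their mitochondria and their translation machinery.

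The values are FPKM, reads per kilobase of gene length, scaled to the reads of the library, so that levels of different genes are compared per length. Library totals were 15642385 to 17524496 reads. The members drew 0.565% to 0.581% of the reads in syn-HSCT and 0.365% to 0.460% in allo-HSCT, and 64 (Cox7a1) to 32035 (Cox4i1) reads each over the 6 libraries, with a median of 4147.5. The table holds genes that differ. Among 4752 genes averaging over 100 reads, none had a log2 ratio of the group means between -0.37 and 0.21, and 93.7% of the 5460 genes tested passed limma's test. Counts of changed members thus describe the table, and they are read against the share of all tested genes that moved the same way. Allo-HSCT replicate 1 stood apart: the chi-square per degree of freedom of its reads against allo-HSCT replicates 2 and 3 was 20.1 and 15.7, compared with 2.49 between the latter pair and 2.59 to 5.39 within syn-HSCT. Member results are given with and without it.

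Promoters of chain and ribosome genes are known for binding sites of the factors NRF1, GABP (an ETS protein) and YY1, so promoter sequence is shown for Cycs and for the most changed member with a RefSeq entry in each complex and each ribosomal subunit. Each run holds the 150 bases before and the 30 bases from the annotated start, read 5′ to 3′ on the strand of the gene in RefSeq GRCm38.p6, and capitals mark matches on either strand to GCNTGCGC (NRF1) and CCGGAAG (ETS). The stretches are Ndufc2 from chr7:97399853-97400032 on the plus strand, Sdhd from chr9:50603820-50603999 on the minus strand, Uqcr11 from chr10:80406792-80406971 on the minus strand, Cycs from chr6:50566540-50566719 on the minus strand, Cox6b2 from chr7:4753065-4753244 on the minus strand, Atp5j2 from chr5:145191512-145191691 on the minus strand, Mrpl33 from chr5:31613801-31613980 on the plus strand and Mrps15 from chr4:126046778-126046957 on the plus strand.
Ndufc2: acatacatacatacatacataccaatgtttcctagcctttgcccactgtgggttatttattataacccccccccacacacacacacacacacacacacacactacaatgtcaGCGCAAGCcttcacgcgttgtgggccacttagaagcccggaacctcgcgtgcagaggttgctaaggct
Sdhd: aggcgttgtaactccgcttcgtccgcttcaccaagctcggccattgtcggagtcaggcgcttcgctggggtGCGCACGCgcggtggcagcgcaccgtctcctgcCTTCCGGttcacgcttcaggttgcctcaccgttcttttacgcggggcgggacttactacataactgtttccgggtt
Uqcr11: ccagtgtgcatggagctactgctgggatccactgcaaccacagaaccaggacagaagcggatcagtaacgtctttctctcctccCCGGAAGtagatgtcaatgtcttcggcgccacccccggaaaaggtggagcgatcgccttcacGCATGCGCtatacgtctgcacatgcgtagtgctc
Cycs: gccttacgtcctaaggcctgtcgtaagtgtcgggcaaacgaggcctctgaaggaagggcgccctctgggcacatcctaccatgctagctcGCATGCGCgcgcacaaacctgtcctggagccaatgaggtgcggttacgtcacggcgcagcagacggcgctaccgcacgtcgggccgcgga
Cox6b2: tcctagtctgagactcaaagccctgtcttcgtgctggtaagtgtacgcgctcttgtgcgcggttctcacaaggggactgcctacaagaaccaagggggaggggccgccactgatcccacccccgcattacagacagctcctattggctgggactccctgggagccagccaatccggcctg
Atp5j2: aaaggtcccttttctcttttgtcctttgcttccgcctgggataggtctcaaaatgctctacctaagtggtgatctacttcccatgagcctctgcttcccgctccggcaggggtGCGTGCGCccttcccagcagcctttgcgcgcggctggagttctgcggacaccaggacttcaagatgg
Mrpl33: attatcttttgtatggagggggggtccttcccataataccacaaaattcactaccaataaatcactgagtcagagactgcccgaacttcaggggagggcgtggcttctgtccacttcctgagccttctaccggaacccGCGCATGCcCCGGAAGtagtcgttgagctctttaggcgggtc
Mrps15: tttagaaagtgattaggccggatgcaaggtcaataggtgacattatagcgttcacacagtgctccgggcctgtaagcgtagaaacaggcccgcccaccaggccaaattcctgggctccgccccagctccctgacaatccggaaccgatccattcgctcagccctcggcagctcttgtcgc
The Sdhd, Uqcr11 and Mrpl33 promoters held both motifs in this stretch, and in Mrpl33 the 2 matches lie next to each other without sharing a base. Ndufc2, Cycs and Atp5j2 held the NRF1 letters, and Cox6b2 and Mrps15 held neither. Cox6a2, the member with the largest fall, is named only.

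Promoter entries of 300 bases, 250 before and 50 after the start, were found for 66 of the 82 members. The NRF1 letters were present in 23 of these 66 (34.8%), compared with 20.2% of 4403 tested genes with an entry and 11.2% of all 27025 promoters. The ETS letters were present in 21 members (31.8%, compared with 16.8% and 9.93%), and AAGATGGCG, the YY1 motif, searched on both strands as well, in 8 members (12.1%, compared with 2.88% and 1.64%). At least 1 of the 3 motifs was found in 59.1% of members and 34.5% of tested genes. The median log2 fold change was -0.52 for the 23 tested members with the NRF1 letters and -0.51 for the 42 without them, and -0.49 and -0.55 for members with and without the ETS letters. These are counts of letters and not of bound sites.

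Chain and mitochondrial ribosome transcripts were lower in allo-HSCT. Of the 80 members tested (those reaching 1 FPKM in 3 libraries), 76 (95%) were lower at a limma adjusted p under 0.05, where 45.8% of all tested genes were lower. Cox10, Mrps34 and Mrps23 were higher, where 47.9% of all tested genes were higher, and Ndufs6b did not pass. The remaining 2 members, Ndufb4b and Ndufb4c, were too low to test, and Cox6a2 and Cox7a1 entered the test through syn-HSCT alone, since their allo-HSCT values were under 1 FPKM. Without this pair, 74 of 78 tested members were lower. The groups did not overlap in 75 members, 72 lower and 3 higher (44.8% and 46.2% of all tested genes). They overlapped in Ndufab1-ps, Ndufs6b, Ndufaf8, Cox7b and Mrpl47. The median log2 fold change of the tested members was -0.51, compared with 0.20 over all tested genes, a distance of -0.71.

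The falls were of similar size in most members. Between the quartiles of the 76 lower members, log2 fold changes ran from -0.65 to -0.43, and only Cox6a2, Cox6b2 and Mrpl33 fell by 1 or more on the log2 scale. Among genes averaging over 100 reads, the table held no log2 ratio of the group means between -0.37 and 0.21. Smaller falls were thus absent from it, and the range is cut on that side. Summed over the members, the level was 7813, 7995 and 7728 FPKM in syn-HSCT replicates 1 to 3 and 6288, 4873 and 5066 FPKM in allo-HSCT replicates 1 to 3. The sum was thus lower in each allo-HSCT library than in each syn-HSCT library, and among the allo-HSCT libraries it was highest in replicate 1. In bulk RNA of an isolate, fewer cells of a type and less RNA per cell cannot be told apart.

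**Figure D1:**
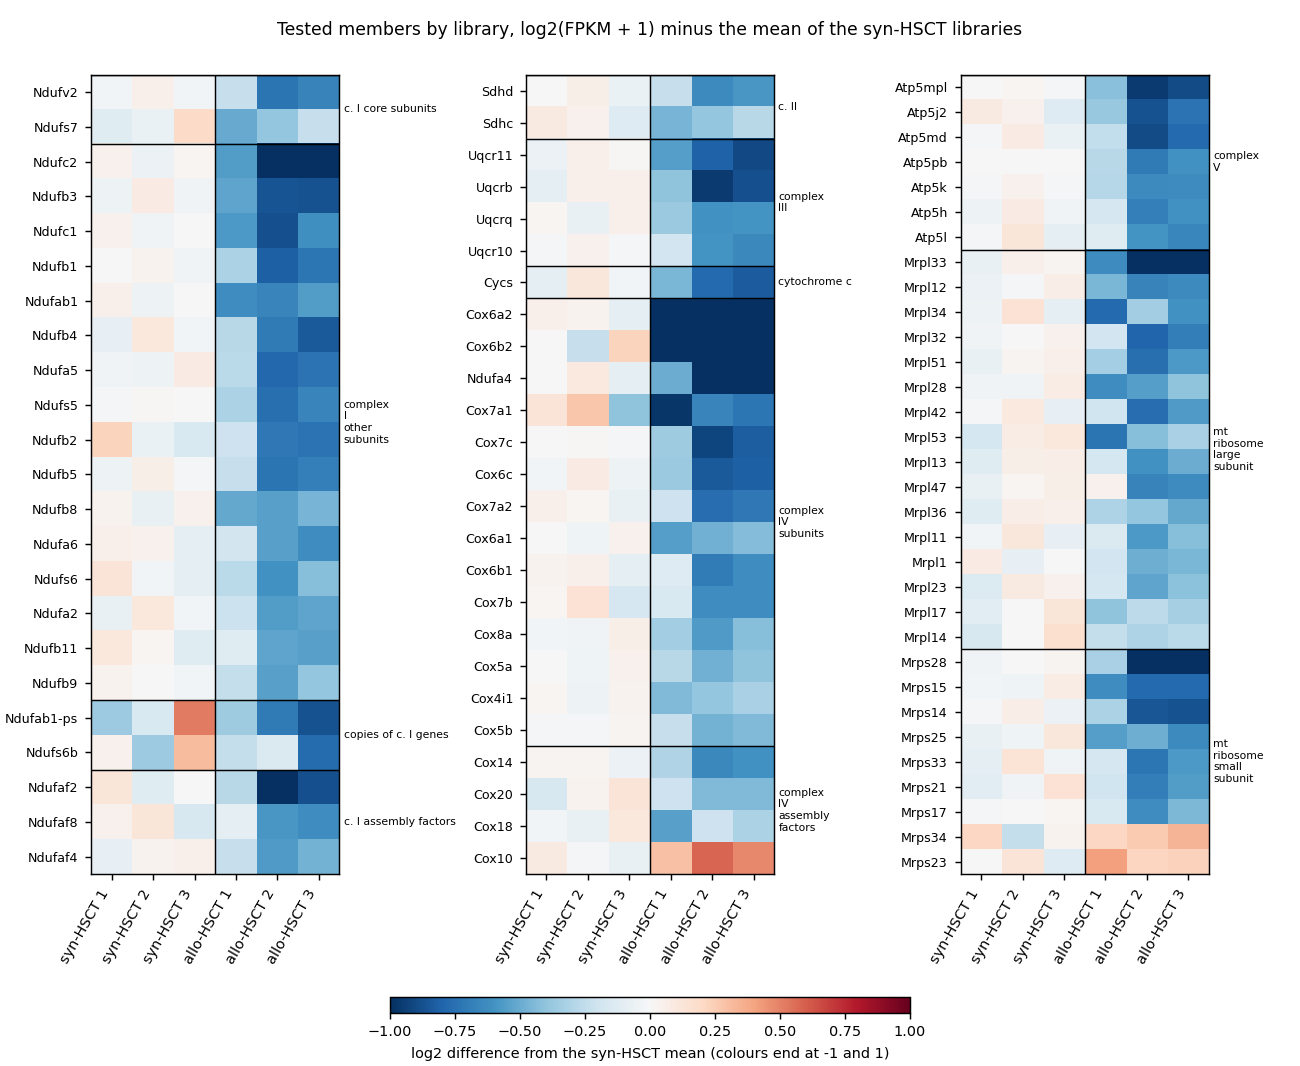
Colour map of the 80 tested members (rows, by complex) in the 6 libraries (columns), as log2(FPKM + 1) minus the mean of the 3 syn-HSCT libraries; blue is lower, red higher, and colours end at -1 and 1. Most rows are blue in allo-HSCT and paler in allo-HSCT replicate 1, while Cox10, Mrps34 and Mrps23 are red.

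The position of allo-HSCT replicate 1 was shared by most members. Its value lay above both other allo-HSCT libraries in 63 of 80 members (78.8%), compared with 39.7% of all tested genes. In 58 of these 63 it was also below every syn-HSCT library, compared with 1294 of the 2170 such genes among all tested genes. The median distance of allo-HSCT replicate 1 from the mean of allo-HSCT replicates 2 and 3 was 0.35 on the log2 scale in the members and -0.02 over all tested genes. Measured from the syn-HSCT mean, the members had a median of -0.28 in allo-HSCT replicate 1 and -0.63 in allo-HSCT replicates 2 and 3. In 12 members it lay below both other allo-HSCT libraries, including the highly expressed complex IV subunits Cox4i1 and Cox6a1. Without allo-HSCT replicate 1, 76 members were lower and 3 higher (47.1% and 48% of all tested genes), with a median log2 fold change of -0.63, and no role group changed its count of calls. The 76 include Cox6a2 and Cox7a1, which entered the test through syn-HSCT alone.

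**Figure D2:**
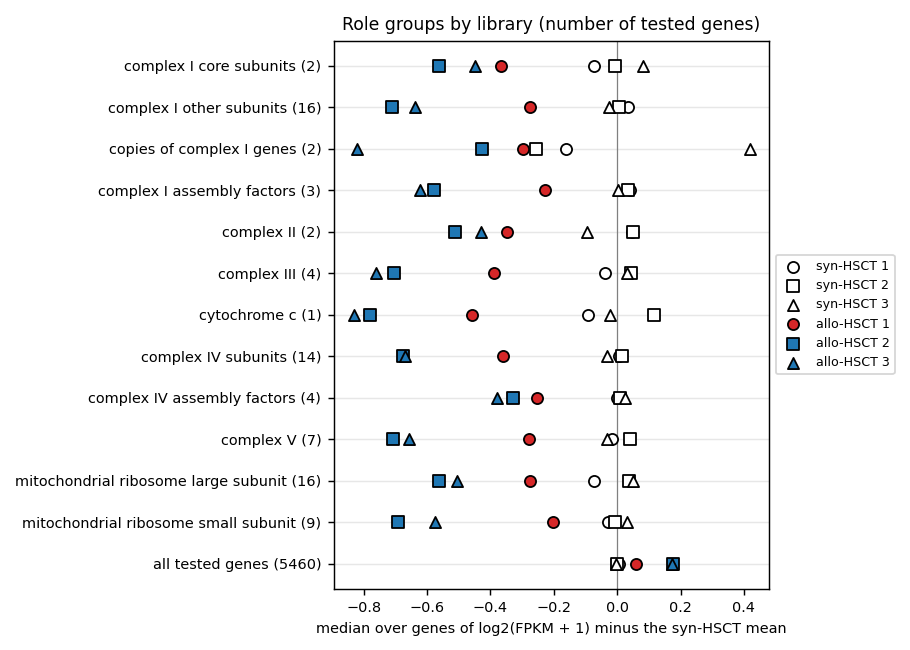
Median over the tested members of each role group (number in brackets) of log2(FPKM + 1) minus the syn-HSCT mean, 1 symbol per library; open symbols are syn-HSCT, the red circle is allo-HSCT replicate 1 and blue symbols are allo-HSCT replicates 2 and 3. In complex III the 3 allo-HSCT medians were -0.39, -0.71 and -0.76, and those of all tested genes were 0.06, 0.17 and 0.17.

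Members are short genes, and length moved with the change. Their median length, recovered from the values, was 757.5 bases (320 to 7525), compared with 3361 over all tested genes. Recovered lengths equalled that of a GENCODE M21 transcript in 5 of the 82 members. They equalled the bases covered by all annotated exons in 2. Lengths of single members, and results that rest on them, are therefore uncertain. The log2 fold change rose with length across the 80 members (Spearman rho 0.42) and across all 5460 tested genes (0.24), and the excess of allo-HSCT replicate 1 over the other allo-HSCT libraries fell with length (rho -0.34 and -0.33). These correlations are across genes that share the libraries and are descriptions. Of 64 tested members under 1500 bases, 95.3% were lower, with a median of -0.52, and of the 803 other tested genes of that length 67.6% were lower, with a median of -0.47. Of 16 members of 1500 bases or more, 15 were lower, with a median of -0.46, compared with 41.1% of 4577 other genes and a median of 0.23.

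**Figure D3:**
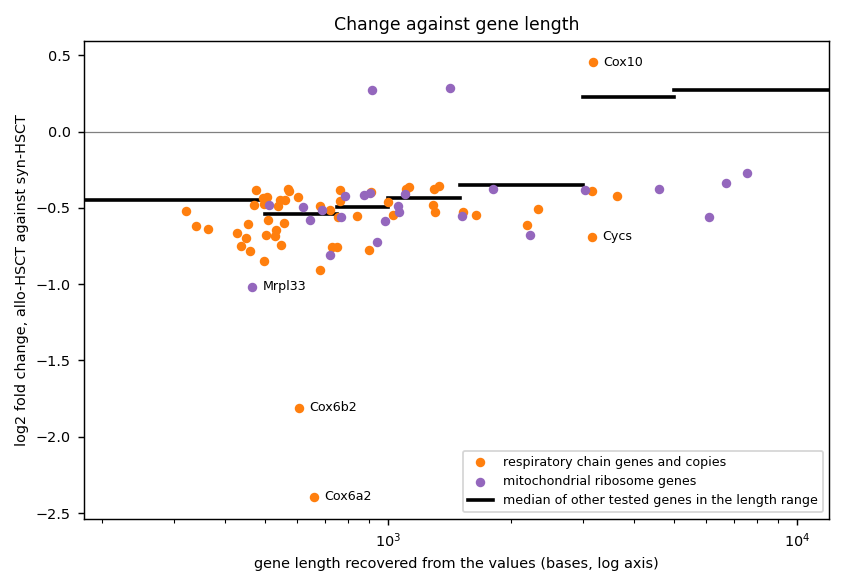
Log2 fold change of allo-HSCT against syn-HSCT (vertical axis) by recovered gene length in bases (horizontal log axis) for the 80 tested members, with bars for the median of the other tested genes in each length range. The medians of members and other genes were -0.63 and -0.45 under 500 bases, and -0.55 and -0.54 from 500 to 750 bases. They were -0.51 and -0.50 from 750 to 1000 bases, and -0.44 and -0.44 from 1000 to 1500 bases. From 1500 to 3000 bases they were -0.54 and -0.35, and from 3000 bases on most members lie below bars at 0.23 and 0.27.

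With a smooth length trend taken out of each library, 36 members were lower and 3 higher (40.3% and 39.9% of all tested genes), and the median log2 fold change of the members was -0.20. The removal moved the median over all tested genes from 0.20 to 0.06, so that the members' median lay -0.26 from it. Under 1500 bases the medians were then -0.15 in the 64 tested members and -0.16 in the 803 other tested genes. Of the 64 members 21 were lower, and of the 803 other genes 328, a larger share. From 1500 bases on the medians were -0.44 in the 16 members and 0.11 in the 4577 other genes. The 40 members that lost their call had a median length of 633 bases and the 36 that remained lower a median of 1047.5. Of the 80 members, 72 still had a negative log2 fold change, compared with 2557 of all 5460 tested genes. Ndufs6, Ndufb9, Ndufaf8 and Cox5b, called lower before, had values of 0.00, 0.02, 0.01 and 0.03. All 15 lower members of 1500 bases or more stayed lower. Without allo-HSCT replicate 1 and with the trend removed, 52 members were lower and 3 higher (43% and 40.1% of all tested genes). Cox6a2, which entered the test through syn-HSCT alone, is among both the 36 and the 52. The part of length in the members' fall was not tested.

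**Figure D4:**
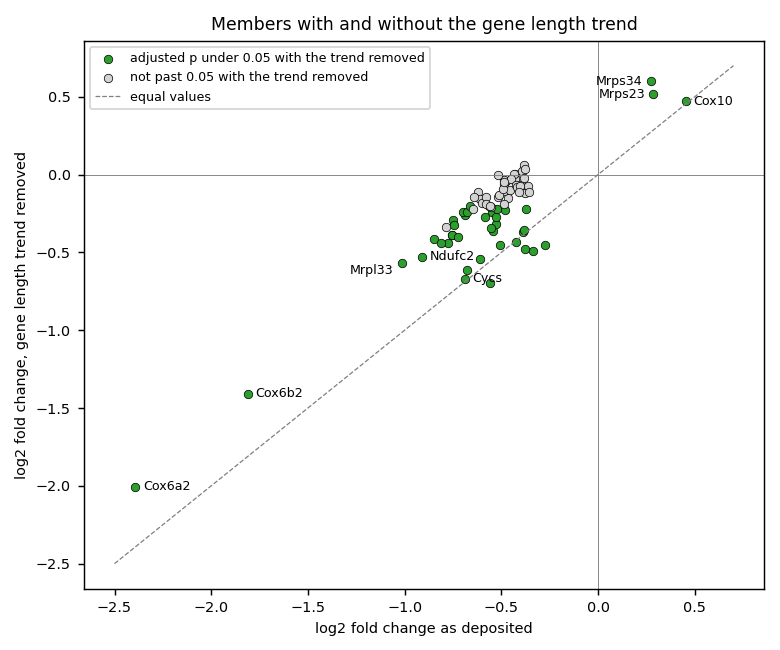
Log2 fold change of the 80 tested members as deposited (horizontal axis) and with the gene length trend removed (vertical axis), green where limma's adjusted p stays under 0.05. Most members move up, 36 on the lower side stay green, and Cox10 and Cycs stay on the line of equal values.

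Both core subunits of complex I in the table were lower. Ndufv2, an iron-sulphur subunit of the arm that takes electrons from NADH, stood at 66.1, 69.6 and 66.0 FPKM in syn-HSCT and at 57.1, 40.1 and 41.9 FPKM in allo-HSCT replicates 1 to 3 (limma log2 fold change -0.54, SE 0.122, adjusted p = 0.00213). Allo-HSCT replicate 1 lay between the groups. Ndufs7, the iron-sulphur subunit next to the coenzyme Q site, stood at 38.2, 39.8 and 47.6 FPKM and at 29.2, 31.6 and 35.4 FPKM (log2 fold change -0.37, limma adjusted p = 0.00664). Its lowest value was in allo-HSCT replicate 1, and with the length trend removed its log2 fold change was -0.08 (limma adjusted p = 0.511).

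All 16 tested accessory subunits of complex I were lower, with log2 fold changes from -0.91 to -0.39 and a median of -0.57. Accessory subunits surround the core and are needed to build and hold the complex. Ndufc2, a subunit of the membrane arm, had the largest fall, from 103, 95.5 and 101 FPKM to 67.4, 47.1 and 45.9 FPKM, 1.87-fold lower (limma log2 fold change -0.91, SE 0.132, adjusted p = 0.000169). Every allo-HSCT value was below every syn-HSCT value, and allo-HSCT replicate 1 was the highest of its group. Ndufb3, also of the membrane arm, fell 1.69-fold from 75.4 ± 4.02 to 44.5 ± 6.46 FPKM (SD, n = 3), and Ndufc1 fell 1.63-fold from 35.8 ± 1.01 to 21.9 ± 2.57 FPKM. Ndufa6, the accessory subunit with the highest level, stood at 160.1 ± 8.81 FPKM in syn-HSCT and at 118 ± 20.02 FPKM in allo-HSCT (log2 fold change -0.45, limma adjusted p = 0.0044). In 14 of the 16 genes allo-HSCT replicate 1 lay above both other allo-HSCT libraries. With the length trend removed 6 of the 16 remained lower, among them Ndufc2 (-0.53) and Ndufab1 (-0.54), which encodes the mitochondrial acyl carrier protein, and 12 were lower when allo-HSCT replicate 1 was left out as well.

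The 4 symbols that are copies of complex I genes carried few reads. Ndufab1-ps, a pseudogene of Ndufab1, had 3.197, 3.86 and 6.73 FPKM in syn-HSCT and 3.22, 2.30 and 1.96 FPKM in allo-HSCT (log2 fold change -0.65, limma adjusted p = 0.0143), and its groups overlapped. Ndufs6b had 4.61, 3.25 and 5.80 FPKM and 3.62, 3.94 and 2.20 FPKM and did not pass (limma adjusted p = 0.0757). Ndufb4b and Ndufb4c stayed under 1 FPKM in every library. Reads can be divided between a gene and a near-identical copy, so these values are uncertain.

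The 3 assembly factors of complex I in the table, which help build the complex and are not part of it, were lower. Ndufaf2, which acts late in assembly, stood at 11.9, 9.89 and 10.9 FPKM in syn-HSCT and at 8.81, 4.28 and 5.44 FPKM in allo-HSCT (limma log2 fold change -0.77, SE 0.188, adjusted p = 0.00342). The groups did not overlap, and allo-HSCT replicate 1 was close to the lowest syn-HSCT value. Ndufaf4, an early assembly factor with a recovered length of 3632 bases, fell from 8.73 ± 0.483 to 6.30 ± 0.905 FPKM, with a log2 fold change of -0.42 before and -0.43 after removal of the length trend. Ndufaf8 stood at 30.2 ± 3.14 and 22.4 ± 4.98 FPKM with overlapping groups (limma adjusted p = 0.0136).

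Both membrane anchor subunits of complex II, which links the tricarboxylic acid cycle to the chain, were lower. Sdhd stood at 118, 123 and 112 FPKM in syn-HSCT and at 100.3, 75.2 and 78.4 FPKM in allo-HSCT (log2 fold change -0.48, limma adjusted p = 0.00224). Sdhc stood at 78.7, 76.1 and 67.8 FPKM and at 53.3, 56.5 and 60.8 FPKM (log2 fold change -0.38, limma adjusted p = 0.0023). The groups did not overlap in either gene, and allo-HSCT replicate 1 was the highest allo-HSCT library for Sdhd and the lowest for Sdhc. Sdhd remained lower with the length trend removed (-0.22, limma adjusted p = 0.0298) and Sdhc did not pass (-0.12).

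All 4 complex III members, accessory subunits of the cytochrome bc1 complex, were lower, and their groups did not overlap. Uqcr11 stood at 114, 123 and 120.1 FPKM in syn-HSCT and at 80.8, 67.7 and 63.3 FPKM in allo-HSCT (limma log2 fold change -0.75, SE 0.0965, adjusted p = 7.65e-05). Uqcrb stood at 131, 145 and 145 FPKM and at 106, 71.8 and 75.8 FPKM (log2 fold change -0.75, limma adjusted p = 0.000601). In both, allo-HSCT replicate 1 lay between the syn-HSCT values and those of the other allo-HSCT libraries. Uqcrq fell 1.45-fold from 67.3 ± 3.07 to 46.5 ± 4.53 FPKM and Uqcr10 fell 1.38-fold from 203 ± 4.91 to 147 ± 26.5 FPKM. Uqcr11, Uqcrb and Uqcrq remained lower with the length trend removed (-0.29, -0.33 and -0.32), and Uqcr10 did not pass (-0.04). Cycs, cytochrome c, which carries electrons from complex III to complex IV and triggers apoptosis when released, stood at 31.3, 36.2 and 32.8 FPKM and at 24.0, 19.0 and 18.3 FPKM. Its recovered length is 3154 bases, and its log2 fold change was -0.69 as deposited (limma adjusted p = 0.000257) and -0.67 with the length trend removed (limma adjusted p = 0.00016).

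Complex IV subunits had the highest summed level of the role groups and included the 2 largest falls. Their summed level was 2898 to 2970 FPKM in syn-HSCT and 2309, 1863 and 1945 FPKM in allo-HSCT replicates 1 to 3, and all 14 tested were lower, Cox6a2 and Cox7a1 among them (median log2 fold change -0.52). Cox4i1, the most abundant member, stood at 481, 459 and 488 FPKM in syn-HSCT and at 349, 363 and 380.2 FPKM in allo-HSCT (log2 fold change -0.39, limma adjusted p = 0.00131). Allo-HSCT replicate 1 was its lowest library. With the length trend removed its log2 fold change was -0.02, and 0.06 without allo-HSCT replicate 1 as well. Ndufa4, a subunit first assigned to complex I and now placed in complex IV, stood at 305, 324 and 283 FPKM and at 215, 145 and 152 FPKM, and was lower in both fits (-0.85, limma adjusted p = 0.000338, and -0.41, limma adjusted p = 0.00079). The 9 other members outside the tissue isoforms below, namely Cox5a, Cox5b, Cox6a1, Cox6b1, Cox6c, Cox7a2, Cox7b, Cox7c and Cox8a, had log2 fold changes from -0.70 (Cox7c) to -0.38 (Cox5b). With the length trend removed 6 of the 14 remained lower, which besides Ndufa4 were Cox5a, Cox6a2, Cox6b2, Cox6c and Cox7c. Cox6a2 and Cox7a1 entered the test through syn-HSCT alone, the group where they are high, so their place in these counts is no support.

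The 2 largest falls among the members were those of tissue isoforms of complex IV. Cox6a2, the heart and muscle form of a subunit whose general form is Cox6a1, stood at 5.99, 5.89 and 5.34 FPKM in syn-HSCT and at 0.628, 0.0885 and 0.186 FPKM in allo-HSCT (log2 fold change -2.39, or -2.01 with the length trend removed). It passed the filter on low values through syn-HSCT alone, so no p is given for it, and the intervals below are no support for the fall. All syn-HSCT libraries were high and all allo-HSCT libraries low. The values rest on 65, 68 and 55 reads against 7, 1 and 2, a ratio of 19.1 after scaling to the library totals (95% interval 10.2 to 40.5, counting error only), and without allo-HSCT replicate 1 on 188 against 3 reads, a ratio of 42.3 (14.2 to 207). The share of Cox6a2 in the sum of Cox6a1 and Cox6a2 was 2.18% ± 0.186 in syn-HSCT and 0.167% ± 0.165 in allo-HSCT (SD, n = 3). Cox6a2 is also known from plasmacytoid dendritic cells of the mouse, and Siglech, a marker of those cells, stood at 7.99 ± 0.320 and 0.349 ± 0.118 FPKM; the part of these cells in the fall of Cox6a2 was not tested. The exons of Cox6a2 overlap those of Itgad on the opposite strand in GENCODE M21, and the strand setting of the counting is not given in the sources used here.

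Cox6b2, the testis form of a subunit whose general form is Cox6b1, stood at 15.5, 13.1 and 18.3 FPKM in syn-HSCT and at 4.49, 4.52 and 2.43 FPKM in allo-HSCT (limma log2 fold change -1.81, SE 0.182, adjusted p = 1.54e-05). The groups were far apart, and allo-HSCT replicate 1 lay within its group. The ratio of reads was 4.05 (3.30 to 5.01, counting error only), and the share of Cox6b2 in the sum of the pair fell from 3.89% ± 0.812 to 1.35% ± 0.459. Cox7a1, the muscle form beside Cox7a2, stood at 2.24, 2.61 and 1.25 FPKM and at 0.514, 0.888 and 0.799 FPKM. These rest on 47 against 17 reads (ratio 2.81, 1.58 to 5.21, counting error only). Cox7a1 too passed the filter through syn-HSCT alone. Its log2 fold change was -0.79, and -0.33 with the length trend removed, and its share of the pair overlapped between the groups. The isoform pairs were singled out after the values were seen, so their shares, read ratios and intervals are descriptions, with no test. For Cox7a1, as for Cox6a2, the filter favoured high syn-HSCT values, so its interval is no support for a fall.

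**Figure D5:**
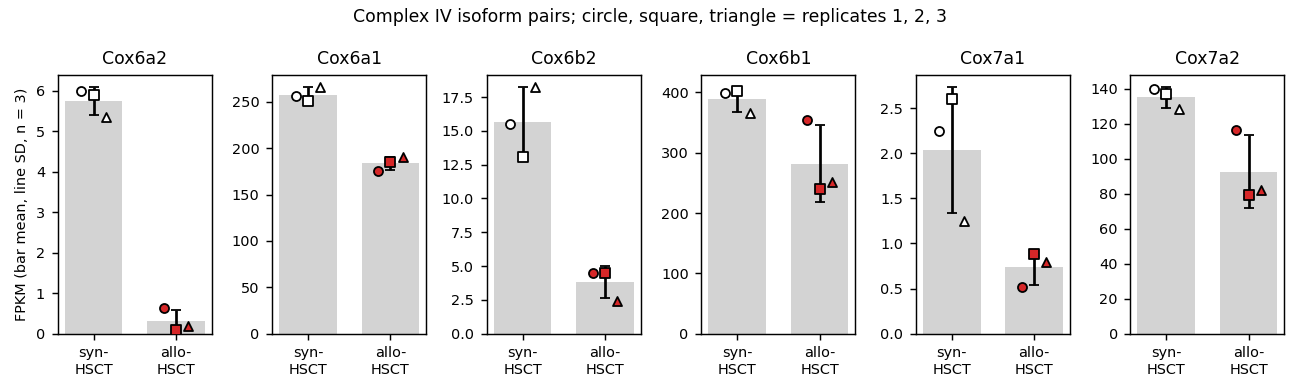
FPKM of 3 tissue isoforms of complex IV and their general forms in the 3 syn-HSCT (open) and 3 allo-HSCT (filled) libraries; bars are means, lines the SD, and circle, square and triangle are replicates 1, 2 and 3. Cox6a2 falls from above 5 FPKM to below 1 FPKM in every allo-HSCT library, while Cox6a1 stays above 170 FPKM.

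Assembly factors of complex IV went in both directions. Cox10, the enzyme that makes a precursor of the haem in complex IV, was higher, at 8.27, 7.68 and 7.27 FPKM in syn-HSCT and at 9.70, 12.1 and 11.2 FPKM in allo-HSCT (limma log2 fold change 0.45, SE 0.0932, adjusted p = 0.00135). Every allo-HSCT value exceeded every syn-HSCT value, with allo-HSCT replicate 1 the nearest to syn-HSCT. The change was 0.47 with the length trend removed (limma adjusted p = 0.0005). Cox14, which takes part in making the first core subunit, fell 1.43-fold to 37.3 ± 5.15 FPKM. Cox20, a chaperone of the second core subunit, fell 1.30-fold to 23.3 ± 2.38 FPKM, and Cox18, which inserts that subunit into the membrane, 1.30-fold to 13.1 ± 1.64 FPKM. These 3 falls did not pass with the length trend removed (-0.15, -0.07 and -0.11).

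All 7 complex V members were lower, and their groups did not overlap. They belong to the membrane part and the side stalk of the ATP synthase. Atp5mpl, a small protein of the membrane part, stood at 119, 120.4 and 117 FPKM in syn-HSCT and at 88.7, 60.9 and 63.4 FPKM in allo-HSCT (limma log2 fold change -0.76, SE 0.128, adjusted p = 0.000426). Atp5j2, subunit f and the most abundant of the 7, stood at 351, 339 and 301 FPKM and at 253, 179 and 197 FPKM (log2 fold change -0.66, limma adjusted p = 0.000842). Atp5md stood at 179, 192 and 173 FPKM and at 152, 97.2 and 105 FPKM (log2 fold change -0.64, limma adjusted p = 0.00255). In all 7 genes, Atp5pb, Atp5k, Atp5h and Atp5l included, allo-HSCT replicate 1 lay between syn-HSCT and the other allo-HSCT libraries. Atp5mpl (-0.39), Atp5j2 (-0.20) and Atp5pb (-0.28) remained lower with the length trend removed, and 6 of the 7 were lower when allo-HSCT replicate 1 was left out as well.

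Of 49 annotated Mrpl genes, for the large subunit of the mitochondrial ribosome, the part that joins amino acids, 16 were in the table. All 16 were lower, with log2 fold changes from -1.02 to -0.27. Mrpl33, a small protein of that subunit, had the largest fall of the ribosomal members and stood at 176, 192 and 188.8 FPKM in syn-HSCT and at 119, 73.6 and 86.5 FPKM in allo-HSCT (limma log2 fold change -1.02, SE 0.149, adjusted p = 0.000175). The groups did not overlap, allo-HSCT replicate 1 was the highest of its group, and the change was -0.57 with the length trend removed (limma adjusted p = 0.000184). Mrpl12, the protein of the stalk to which translation factors bind, fell 1.51-fold from 79.3 ± 3.54 to 52.5 ± 4.24 FPKM. Mrpl34 fell 1.51-fold from 35.2 ± 3.34 to 23.4 ± 3.75 FPKM, with its lowest value, 20.05 FPKM, in allo-HSCT replicate 1. By recovered length, the 3 longest large subunit genes in the table were Mrpl14 (7525 bases), Mrpl17 (6712 bases) and Mrpl1 (4591 bases). Their log2 fold changes were -0.27, -0.33 and -0.38 as deposited and -0.45, -0.49 and -0.48 with the length trend removed, under which 9 of the 16 remained lower. In GENCODE M21 the exons of Mrpl14 cover 949 bases, so its place among the longest and its length-corrected value are uncertain.

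The small subunit, which reads the messenger RNA, had 9 of 29 annotated Mrps genes in the table, 7 of them lower and 2 higher. Mrps28 stood at 38.03, 39.0 and 39.8 FPKM in syn-HSCT and at 31.0, 17.7 and 18.7 FPKM in allo-HSCT (limma log2 fold change -0.81, SE 0.171, adjusted p = 0.00156). Mrps15, which has a counterpart in bacterial ribosomes, stood at 57.9, 57.5 and 62.2 FPKM and at 38.02, 34.1 and 34.1 FPKM (limma log2 fold change -0.73, SE 0.0769, adjusted p = 2.13e-05). The groups did not overlap in either gene, and allo-HSCT replicate 1 was much nearer to its group in Mrps15 than in Mrps28. Mrps14 fell 1.61-fold from 25.4 ± 1.20 to 15.7 ± 3.88 FPKM, and was -0.68 and, with the length trend removed, -0.62 on the log2 scale. Mrps21, the most abundant of the 9, stood at 91.4 ± 8.56 and 65.6 ± 12.0 FPKM (limma adjusted p = 0.00468), with -0.05 after removal of the length trend. Mrps25, at 6076 bases the longest of the 9, stood at 3.50, 3.60 and 4.12 FPKM and at 2.23, 2.37 and 2.04 FPKM, and its log2 fold change was -0.56 as deposited and -0.70 with the length trend removed.

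Mrps34 and Mrps23, proteins of the small subunit, were higher. Mrps23 stood at 29.6, 32.4 and 27.1 FPKM in syn-HSCT and at 39.7, 34.6 and 34.9 FPKM in allo-HSCT (limma log2 fold change 0.28, SE 0.0901, adjusted p = 0.013). Mrps34 stood at 32.8, 23.7 and 28.9 FPKM and at 32.8, 34.1 and 36.0 FPKM (limma log2 fold change 0.27, SE 0.109, adjusted p = 0.0359). Its groups touch, with the highest syn-HSCT and the lowest allo-HSCT value equal to 3 digits. Mrps34 did not pass without syn-HSCT replicate 2 (log2 fold change 0.15), without syn-HSCT replicate 3 (0.29), without allo-HSCT replicate 2 (0.28) or without allo-HSCT replicate 3 (0.24), and Mrps23 did not pass without syn-HSCT replicate 3 (0.22). Both rose by more with the length trend removed, 0.60 for Mrps34 (limma adjusted p = 0.00095) and 0.52 for Mrps23 (limma adjusted p = 0.000152). In GENCODE M21 the exons of Mrps34 overlap those of Nme3 on the same strand and of Mapk8ip3 on the other. Such overlaps with another gene were found in 27 of the 82 members, 7 of them on the same strand, and 2 pairs of members, Ndufs6 with Mrpl36 and Ndufb5 with Mrpl47, overlap each other.

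Genes that serve the chain without matching the symbol rule are given by function, to be read against the 45.8% of all tested genes that were lower and the 47.9% that were higher. Of the protein import genes, all 13 tested (35 listed) were lower, 10 of them also with the length trend removed, including Timm8a1 (log2 fold change -0.77, limma adjusted p = 0.000776) and Pam16 (-0.67, limma adjusted p = 0.00131). Of 8 tested tricarboxylic acid cycle genes (19 listed), 7 were lower in both fits. Idh2, the mitochondrial NADP-dependent isocitrate dehydrogenase, stood at 23.7, 24.4 and 23.1 FPKM in syn-HSCT and at 9.40, 9.08 and 9.50 FPKM in allo-HSCT (log2 fold change -1.26, limma adjusted p = 2.81e-07), with allo-HSCT replicate 1 within its group. Fh1, fumarase, was lower by 1.98-fold (log2 fold change -0.97). Coenzyme Q synthesis had 3 lower and 1 higher of 5 tested (13 listed), led by Coq7 (-0.61) and Coq4 (-0.49). Coq4 entered the test through syn-HSCT alone, with allo-HSCT values under 1 FPKM, so its place in this count is no support.

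Other subunits and assembly factors of the chain had 6 lower and 5 higher of 13 tested (44 listed). Atpif1, the inhibitor of the ATP synthase, fell from 69.5 ± 0.931 to 34.8 ± 5.63 FPKM (log2 fold change -0.99, limma adjusted p = 2.14e-05), and Slirp, an RNA-binding protein of mitochondrial messengers, had a log2 fold change of -0.66 (limma adjusted p = 0.00167). Atpif1 remained lower with the length trend removed (-0.79), and Slirp did not pass (-0.20), with 4 lower and 3 higher in the list. Mitochondrial DNA expression and translation factors had 7 lower and 3 higher of 11 (38 listed), with the elongation factor Tsfm (-0.59) and the ribosome-associated Chchd1 (-0.58) having the largest changes. Tsfm remained lower with the length trend removed (-0.32) and Chchd1 did not pass (-0.18), with 5 lower and 2 higher in the list. Mitochondrial tRNA synthetases had 2 lower and 3 higher of 7 (22 listed), with Iars2 (0.48) and Pars2 (0.43) the largest changes, and 2 lower and 4 higher with the length trend removed. The 13 subunits encoded by mitochondrial DNA were not analysed here.

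Of the regulators of chain genes, 6 of 8 tested (19 listed) were higher and 2 lower. Gabpb2, a subunit of GABP, rose from 12.4 ± 0.952 to 20.1 ± 0.530 FPKM (log2 fold change 0.66, limma adjusted p = 4.74e-05), and Nrf1 stood at 4.28 ± 0.0752 and 5.06 ± 0.474 FPKM (log2 fold change 0.20, limma adjusted p = 0.0425). With the length trend removed Gabpb2 remained higher (0.43), and Nrf1 had a log2 fold change of -0.03 and did not pass. Sirt3, a mitochondrial deacetylase, fell from 9.30 ± 0.638 to 5.13 ± 0.373 FPKM (log2 fold change -0.75, limma adjusted p = 3.11e-05). The median length of the tested regulators was 9166.5 bases, and with the length trend removed 3 were higher and 2 lower (39.9% and 40.3% of all tested genes).

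Marker genes of several cell types differed between the groups. Their counts are to be read against the 45.8% of all tested genes that were lower and the 47.9% that were higher. All 15 T cell markers were present and higher in allo-HSCT, and their summed level was 1679 to 1775 FPKM in syn-HSCT and 2924 to 2986 FPKM in allo-HSCT. Of 10 monocyte and macrophage markers tested 9 were lower (sums of 1922 to 2515 and 582 to 814 FPKM), of 9 granulocyte markers 6 (1645 to 1670 and 826 to 948 FPKM), of 6 dendritic cell markers 5 (127 to 138 and 63.2 to 66.3 FPKM) and of 10 markers of dividing cells all 10 (661 to 704 and 443 to 484 FPKM). The other tested markers of the monocyte, granulocyte and dendritic cell lists, Ly6c2, Ngp, Ltf, Lcn2 and Xcr1, were higher. Among the dendritic cell markers, Siglech and Cd209a entered the test through syn-HSCT alone and Xcr1 through allo-HSCT alone. Their calls are therefore no support. B cell markers summed to 10.5 to 11.6 and 16.3 to 17.5 FPKM (3 of 4 tested higher) and erythroid markers to 256 to 281 and 322 to 396 FPKM (4 higher and 4 lower of 9). No listed marker in the table was at 0 in all libraries. Allo-HSCT replicate 1 had the highest sum of its group for the T cell, monocyte, granulocyte, dendritic, erythroid and dividing cell lists, as it did for the members. For the B cell list its sum was the lowest of its group. The part of these cells in the fall of chain and ribosome transcripts was not tested.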

How the data were processed

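RNA of splenic CD3+ T cells was measured in 6 libraries, 3 per group. Per the labels' protocols, a kit isolated the T cells and sequencing libraries were made from RNA depleted of ribosomal RNA, and the submitters' processing notes name limma. Not given in the sources used here: aligner, counting tool, genome build, strand setting. No unit is named in the deposited table. Its values were treated as FPKM computed by the authors, because for 8468 of 8468 genes a single gene length and the 6 library totals turned them into whole numbers of reads (largest distance 2.6e-05). The totals were found from 1036 single-transcript genes (GENCODE M21). "Reads" may be single reads or pairs. Dividing by gene length and total leaves in place any bias of the libraries against short or long transcripts. The table holds 42.2% to 45.5% of each library's reads.

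The test was limma 3.58.1 in R 4.3.3, fitted with a mean-variance trend and no covariate to log2(FPKM + 1) of all 6 libraries, for genes reaching 1 FPKM in at least 3 of them, with Benjamini-Hochberg adjusted p-values over the 5460 tested genes with a threshold of 0.05. Log2 fold changes on this scale understate the change of low genes, and folds are ratios of mean FPKM. For the length-corrected values, a loess curve on length (span 0.3) was subtracted from each library. The test was tried on simulated reads with known changes in few genes. The simulated libraries had no length trend and no library that stood apart, so they do not check the test under these features of the table. Motifs were searched with Python 3.11.15 in the RefSeq promoter table. Intervals of read ratios are exact 95% intervals of counting error, on reads pooled over libraries, and leave out the spread between libraries.

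Members, role groups, pathway lists and marker lists were chosen with earlier results of these data known. Named members are every member of a role group with 5 or fewer members, the 3 largest changes with groups that do not overlap and the highest mean in larger groups, every member called higher, and the 2 largest changes of a pathway list; Cox7a1, Ndufab1, the longest members of each ribosomal subunit, and those whose sign turned were named after their values were seen. The group of copies was set apart after its members were seen. Alternatives covered pseudocount, filter, scaling, length trend, voom on recovered reads, sample weights, a replicate block and leaving out each library.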

Additional observations from a re-analysis of the deposited data

How the results depend on the processing

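The fall of the members kept its count within 1.5 times (69 to 77 lower calls) under the other settings, and the settings that took out the gene length trend moved it. With the length trend removed 36 members were lower, and 38 with the replicate block and the length trend removed. By group, these 2 settings gave 1 and 1 lower of the complex I core subunits, 6 and 7 of the other complex I subunits, 0 and 0 of the copies, 1 and 1 of complex II, 6 and 7 of the complex IV subunits, 0 and 0 of the complex IV assembly factors, 3 and 3 of complex V, 9 and 9 of the large and 4 and 4 of the small ribosomal subunit. Without allo-HSCT replicate 1 and with the length trend removed, a setting chosen after seeing the data, the counts that moved were 1 core subunit, 0 copies, 1 of complex II, 8 complex IV subunits and 1 assembly factor. The cause was not tested.

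The replicate block alone gave 77 lower members and 2 lower copies. Same-numbered libraries did not deviate together (correlations -0.0217, -0.202 and 0.077), so the numbers are not taken as pairs. Sample quality weights gave 2 lower copies and a mean of at least 5 FPKM gave 0 lower copies, where fewer genes were tested, and 1604 lower genes in the table. With no filter 1 copy (Ndufb4c) and 1 small subunit gene were higher. Leaving out single libraries gave 1 to 3 higher members, 1 to 2 lower copies and 0 to 2 higher small subunit genes. Of the 38 named members with a test, 24 kept direction and call with the length trend removed, 12 lost the call and 2 turned, Ndufs6b to 0.0616 and Ndufaf8 to 0.0067, with the same values under the replicate block with the trend removed. Without allo-HSCT replicate 1 as well, Ndufs6b was at 0.0851, Ndufs7 at 0.0179, Cox4i1 at 0.0649 and Cox18 at 0.0082.

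Depth limits the copies and the tissue isoforms, which rest on few reads. The table lists genes that differ, so members outside it were not analysed, and 3 libraries a group with 1 apart limit every estimate of spread.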

Other observations

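Cytosolic ribosomal protein genes were chosen as a group after the values were seen. Of 19 tested, 8 were lower and 10 higher in allo-HSCT, where 45.8% and 47.9% of all tested genes were lower and higher. The 19 had a median log2 fold change of 0.33 and a median length of 833 bases, close to that of the members. In 17 of the 19, allo-HSCT replicate 1 was the highest allo-HSCT library, and over the 19 it exceeded the mean of the others by a median of 0.48 on the log2 scale. Cytosolic ribosomal protein genes have processed pseudogenes among which reads can be split. Of 7 tested proteasome subunit genes, chosen in the same way, 5 were lower and 2 higher (45.8% and 47.9% of all tested genes). Their median log2 fold change was -0.42. Across the 80 members the log2 fold change was weakly related to the mean level (Spearman rho -0.12, a description across genes).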
